A study of Mus musculus with 18 samples.

Results

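MHC and antigen presentation genes were described across 18 right kidneys of male C57BL/6 mice. Members were all rows of the deposited table whose gene symbol starts with H2-, the prefix of the mouse major histocompatibility complex, together with Cd74, Ciita, Nlrc5, B2m, Tap1, Tap2, Tapbp, Psmb8, Psmb9 and Psmb10. The rule found 46 of the 32675 genes in the table, of which 36 carried the H2- prefix. 38 of the 46 had enough counts for testing, and the other 8 stayed at or below 0.226 FPKM (fragments per kilobase of exon, scaled to the mapped fragments of each library) in every mouse. H2-Ke6, which encodes a steroid dehydrogenase, was included by its symbol and has no role in presentation.

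MHC class I molecules carry short peptides from the cell interior to the surface, where CD8+ T cells and natural killer cells inspect them. The peptides are cut by the proteasome, whose catalytic subunits are exchanged for Psmb8, Psmb9 and Psmb10 under interferon gamma, pumped into the endoplasmic reticulum by Tap1 and Tap2, and loaded with the help of Tapbp onto a heavy chain paired with B2m. MHC class II molecules carry peptides from the endocytic pathway to CD4+ T cells. They are assembled on the invariant chain Cd74 and loaded by H2-DM, which H2-DO restrains, mainly in dendritic cells, macrophages and B cells. Nlrc5 and Ciita are the transactivators of class I and class II genes.

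The series has 3 groups of 6 mice, all wild type and labelled as 6 weeks old. Ctrl mice were handled each day and not defeated, and the methods mention injection for the defeated mice only. PBS mice (StressPbs) met an aggressor for 10 min a day over 14 days and were injected with phosphate-buffered saline. FLX mice (StressFlx) had the same defeat and intraperitoneal injections of 10 mg/kg fluoxetine, a serotonin reuptake inhibitor, each day. If Ctrl mice had no injection, defeat and injection cannot be told apart in PBS versus Ctrl. The study set aside an unnamed PBS mouse with excessive inflammatory transcripts. Here PBS 6 was taken as that mouse, because its summed level of neutrophil markers was 114 FPKM against 9.32 to 28.5 in the other PBS mice. These markers include Lcn2 beside S100a8 and S100a9, and which cells made the transcripts was not tested. Comparisons therefore used 5 PBS mice unless all 6 are named.

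Because the members are thought of as a co-regulated module, upstream sequence of a few of them is shown first. RefSeq promoter windows on GRCm38.p6 (250 bases before to 50 after a start) were found for 30 of the 44 member symbols. Capitals mark the letters CCAAT (the Y box core), GCAACNG (the X box core), GAAA, any pair of bases and GAAA again (ISRE, the interferon-stimulated response element) and GGGANTNCC (the kappa B motif), on either strand. TTCNNNGAA (GAS, the gamma-activated site) was searched too and had no match in the windows printed. The bases run 5′ to 3′ towards the transcription start and were cut to a stretch without annotated exon bases. B2m (chr2:122147487-122147685, + strand), H2-K1 (chr17:34000348-34000547, - strand) and H2-Q6 (chr17:35424650-35424849, + strand) stand for class I genes that did not pass the test. H2-T22 (chr17:36042748-36042942, - strand) stands for a class I gene that did, and H2-Aa (chr17:34287824-34288023, - strand) and H2-Eb1 (chr17:34305721-34305866, + strand) stand for the class II chains.
B2m: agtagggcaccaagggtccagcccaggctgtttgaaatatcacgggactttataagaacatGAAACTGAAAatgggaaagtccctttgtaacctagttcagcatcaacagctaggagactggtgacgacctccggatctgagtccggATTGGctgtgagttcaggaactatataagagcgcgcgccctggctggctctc
H2-K1: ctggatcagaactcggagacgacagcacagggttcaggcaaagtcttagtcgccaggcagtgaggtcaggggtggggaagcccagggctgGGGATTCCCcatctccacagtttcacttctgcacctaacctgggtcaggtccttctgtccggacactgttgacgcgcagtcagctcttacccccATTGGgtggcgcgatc
H2-Q6: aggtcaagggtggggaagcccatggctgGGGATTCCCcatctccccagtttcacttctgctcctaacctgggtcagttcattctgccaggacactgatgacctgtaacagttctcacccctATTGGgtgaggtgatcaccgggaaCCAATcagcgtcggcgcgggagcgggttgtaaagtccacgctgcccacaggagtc
H2-T22: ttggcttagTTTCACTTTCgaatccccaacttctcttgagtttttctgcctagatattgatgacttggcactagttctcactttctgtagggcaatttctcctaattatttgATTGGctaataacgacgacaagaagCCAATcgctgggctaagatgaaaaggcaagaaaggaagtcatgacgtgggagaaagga
H2-Aa: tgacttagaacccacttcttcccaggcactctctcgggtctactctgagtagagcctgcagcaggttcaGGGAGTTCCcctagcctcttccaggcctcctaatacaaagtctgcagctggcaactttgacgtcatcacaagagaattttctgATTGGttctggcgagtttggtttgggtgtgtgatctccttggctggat
H2-Eb1: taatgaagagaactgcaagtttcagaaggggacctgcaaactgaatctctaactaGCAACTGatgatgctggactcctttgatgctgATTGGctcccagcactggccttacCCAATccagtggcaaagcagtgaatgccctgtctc

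H2-K1 and H2-Q6 shared a kappa B match that reads on both strands, 110 and 172 bases before their starts, and an inverted CCAAT downstream of it. H2-T22 had no kappa B match in its stretch, but an ISRE match 191 bases before its start and a pair of CCAAT matches, as H2-Q6 had. The B2m stretch held an ISRE match 139 bases and an inverted CCAAT 53 bases before its start. H2-Eb1 had the X box core 91 bases before its start with CCAAT matches nearer to it, and H2-Aa an inverted CCAAT and a kappa B match. CCAAT was found in 28 of the 33 windows of members (26 of the 30 member genes) and in 37.4% of the 32851 promoter windows in the reference. Kappa B matched in 8 of the 33 windows (7 genes), beside 3.95% of all windows. ISRE, the X box core and GAS each matched in 3 of the 33 (3 genes), beside 3.44%, 12.7% and 8.30% of all windows. A match is a description of letters and was tested against no binding data. Only exact letters were counted, so the lack of a match does not mean that an element is absent. H2-K1 and H2-Q6 both held tttcacttct downstream of the kappa B match, close to the TTTCACTTTC marked in H2-T22. H2-Aa held gcaactt, which differs from the X box core in its last letter.

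Libraries held 72149987 to 79061296 assigned counts, except for FLX 3 to FLX 6, whose totals began at 48928823. Ctrl 3 stood apart among the controls: over the whole table, 772 genes were called in PBS versus Ctrl with it and 1662 without it, and 744 and 3099 genes in FLX versus Ctrl. Among FLX mice, FLX 4 and FLX 5 had the highest sums of macrophage markers (95.7 and 81.4 FPKM, against 42.9 to 59.2 in the others), and PBS 5 and FLX 5 the highest sums of fat and adrenal markers (327 and 187 FPKM). Kidney markers such as Umod and Slc34a1 were abundant in all mice, but 5 proximal tubule markers summed to 933 FPKM in PBS 6, against 1910 to 2586 FPKM in the other mice.

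The class I light chain B2m had the highest level of all members, with a mean of 355 FPKM over the 18 mice. It was followed by H2-D1 (110 FPKM) and H2-K1 (99.7 FPKM), the classical class I heavy chains of this strain, and by Cd74 (109 FPKM). The ranges of these 3 overlapped in every group. Within mice, H2-D1 was above H2-K1 in every Ctrl and FLX mouse, and below it only in PBS 1 and PBS 3. The class II chains H2-Eb1, H2-Ab1 and H2-Aa reached 41.9, 37.1 and 21.95 FPKM, the non-classical class I genes H2-T23 and H2-T22 38.9 and 30.1 FPKM, and H2-Q6, H2-Q4 and H2-Q7 24.2, 12.3 and 7.82 FPKM. The loading factor Tapbp was at 16.4 FPKM, but the transporter genes Tap2 and Tap1 were only at 4.97 and 2.70 FPKM. In all, 14 members had a mean of at least 10 FPKM and 27 of at least 1 FPKM. The transactivators Nlrc5 and Ciita were at 0.661 and 0.309 FPKM. The 8 untested members were H2-M1, H2-M2, H2-M6-ps, H2-M9, H2-Pa and 3 genes listed as H2-M10. FPKM values are per length, so they can be set side by side between genes.

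**Figure D1:**
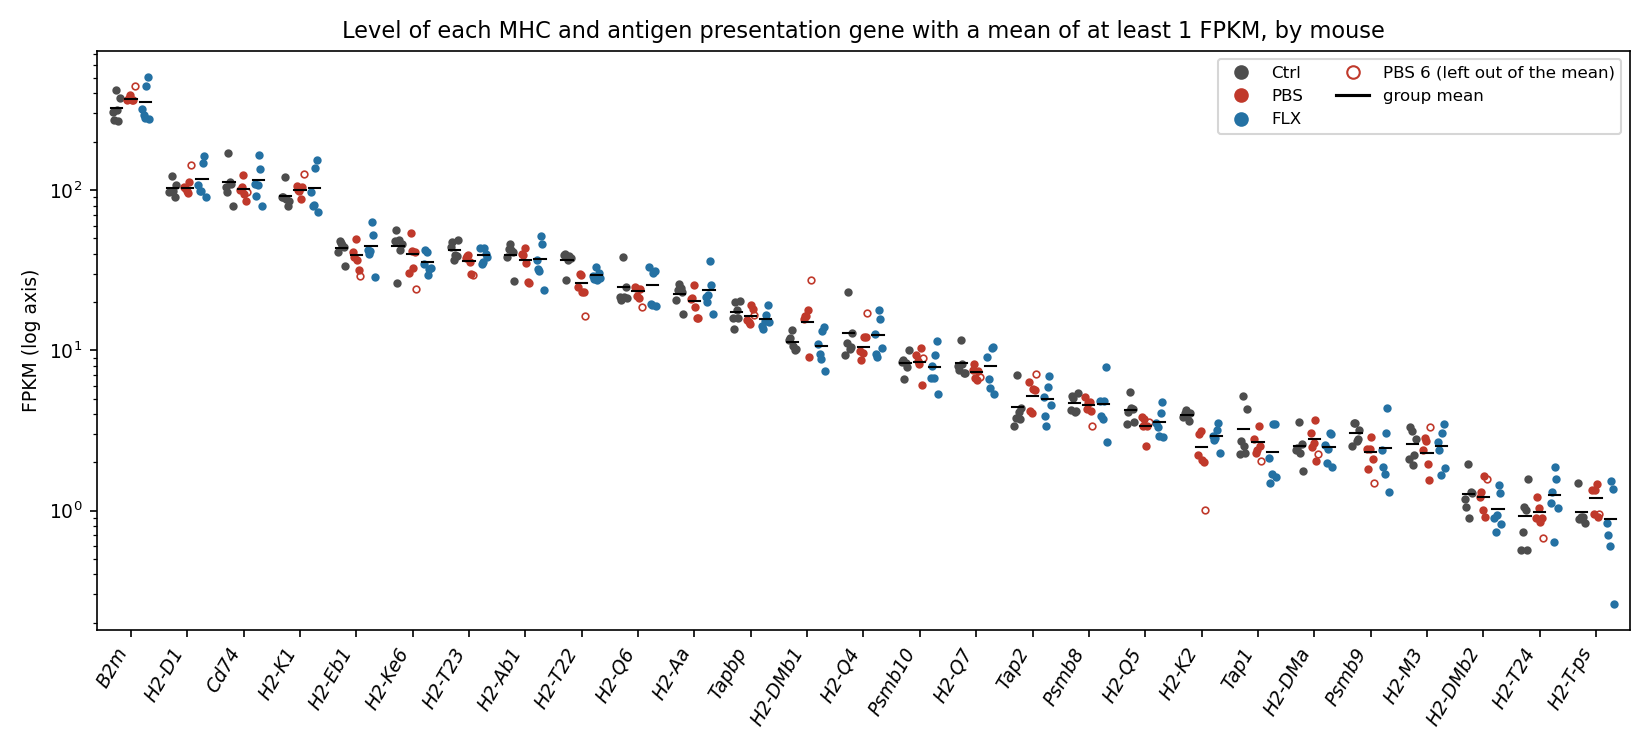
FPKM on a log axis for the 27 members with a mean of at least 1 FPKM, ordered by mean. Each point is a mouse, the line is the mean of the group, and the open circle is PBS 6. The groups overlap for most genes, from B2m (270 to 506 FPKM) down to H2-T-ps (0.263 to 1.54 FPKM).

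PBS versus Ctrl asks how the kidney of defeated, injected mice differed from that of handled mice. 2 of 38 tested members passed an adjusted p under 0.05, and both were lower in PBS: H2-K2 and H2-T22. The share was 5.26%, beside 3.81% of the 20251 genes tested. None was higher. With all 6 PBS mice the same 2 members were called, beside 4.28% of genes. 9 members (23.7%) had an unadjusted p under 0.05, beside 17.9% of genes. 12 of the 38 fitted folds were above 0, and the median log2 fold change was -0.13, against -0.0078 over all genes. In whole tissue, fewer cells of a type and less RNA per cell cannot be told apart.

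H2-K2, listed as a transcribed pseudogene next to H2-K1 (17:33974659-33978827, GRCm38, - strand), was at 3.60, 4.03 and 4.24 FPKM (lowest, median, highest) in Ctrl. In PBS 1 to PBS 5 it was at 2.22, 3.03, 3.16, 2.06 and 2.01 FPKM, and in FLX at 2.28, 2.89 and 3.50 FPKM. Every Ctrl mouse was above every PBS and FLX mouse, and PBS 6 was lowest of all at 1.01 FPKM. The log2 fold change in PBS versus Ctrl was -0.66 ± 0.14 (SE), with an adjusted p of 0.0102 and an exact permutation p of 0.00216 (2-sided), the smallest that 5 against 6 mice can give. It kept the call without Ctrl 3 (adjusted p = 0.0117). H2-K2 was the only tested member whose PBS and Ctrl mice did not overlap, beside 3.52% of all genes without overlap. No 150-base stretch of its annotated transcripts was shared with another gene.

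H2-T22, a non-classical class I gene whose product is known as a ligand of gamma delta T cells, was at 27.6, 38.3 and 39.8 FPKM in Ctrl. PBS 1 to PBS 5 had 24.8, 30.0, 29.7, 23.2 and 23.0 FPKM, and FLX mice 27.5, 28.7 and 32.9 FPKM. Only Ctrl 3, the lowest control, lay within the range of the stressed mice, and PBS 6 was again lowest at 16.4 FPKM. The log2 fold change in PBS versus Ctrl was -0.49 ± 0.11 (SE, adjusted p = 0.0183, exact permutation p = 0.00866). Without Ctrl 3 it was -0.57 (adjusted p = 0.00127). The call was lost without PBS 1 (adjusted p = 0.0542), without PBS 4 (0.0536) and in a fit of these 2 groups alone (0.0570). 0.384% of the 150-base stretches of H2-T22 transcripts were shared with the neighbour H2-T10, whose log2 fold change was -0.29 ± 0.21 (SE, adjusted p = 0.507).

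3 members passed the rule of the study, a log2 fold change beyond 1 in either direction with an unadjusted p under 0.05, beside 3.28% of all genes. H2-Q10 encodes a secreted class I molecule made mainly by liver. It was at 0.120, 0.290 and 0.577 FPKM in Ctrl and at 1.26, 0.381, 0.744, 0.613 and 2.09 FPKM in PBS 1 to PBS 5 (log2 fold change 1.59 ± 0.52 SE, adjusted p = 0.101). The highest value of all was in FLX 5 (2.25 FPKM), with the other FLX mice at 0.305 to 0.578 FPKM. PBS 5, FLX 5 and PBS 1, the mice highest in H2-Q10, had 214, 54.6 and 20.8 FPKM of Ucp1, a brown fat gene. FLX 2 had 65.0 FPKM of Ucp1 and 0.485 FPKM of H2-Q10, and the part of adjacent fat in the result was not tested. H2-Q10 was called by DESeq2 (adjusted p = 0.0188).

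H2-Oa, a chain of H2-DO, was at 0.195, 0.686 and 1.09 FPKM in Ctrl and at 0.111, 0.534, 0.317, 0.117 and 0.196 FPKM in PBS 1 to PBS 5 (log2 fold change -1.34 ± 0.50 SE, adjusted p = 0.153). Its partner H2-Ob had a log2 fold change of -0.64 ± 0.26 (SE, adjusted p = 0.185). H2-Bl, a class I gene annotated in part as a polymorphic pseudogene, was at 0.297, 0.453 and 1.001 FPKM in Ctrl and at 0.211, 0.363, 0.317, 0.250 and 0.129 FPKM in PBS 1 to PBS 5 (-1.02 ± 0.43 SE, adjusted p = 0.218). With all 6 PBS mice, of which PBS 6 was listed at 0, H2-Bl no longer passed this rule. H2-Oa and H2-Bl overlapped between the groups and lay at low levels.

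**Figure D2:**
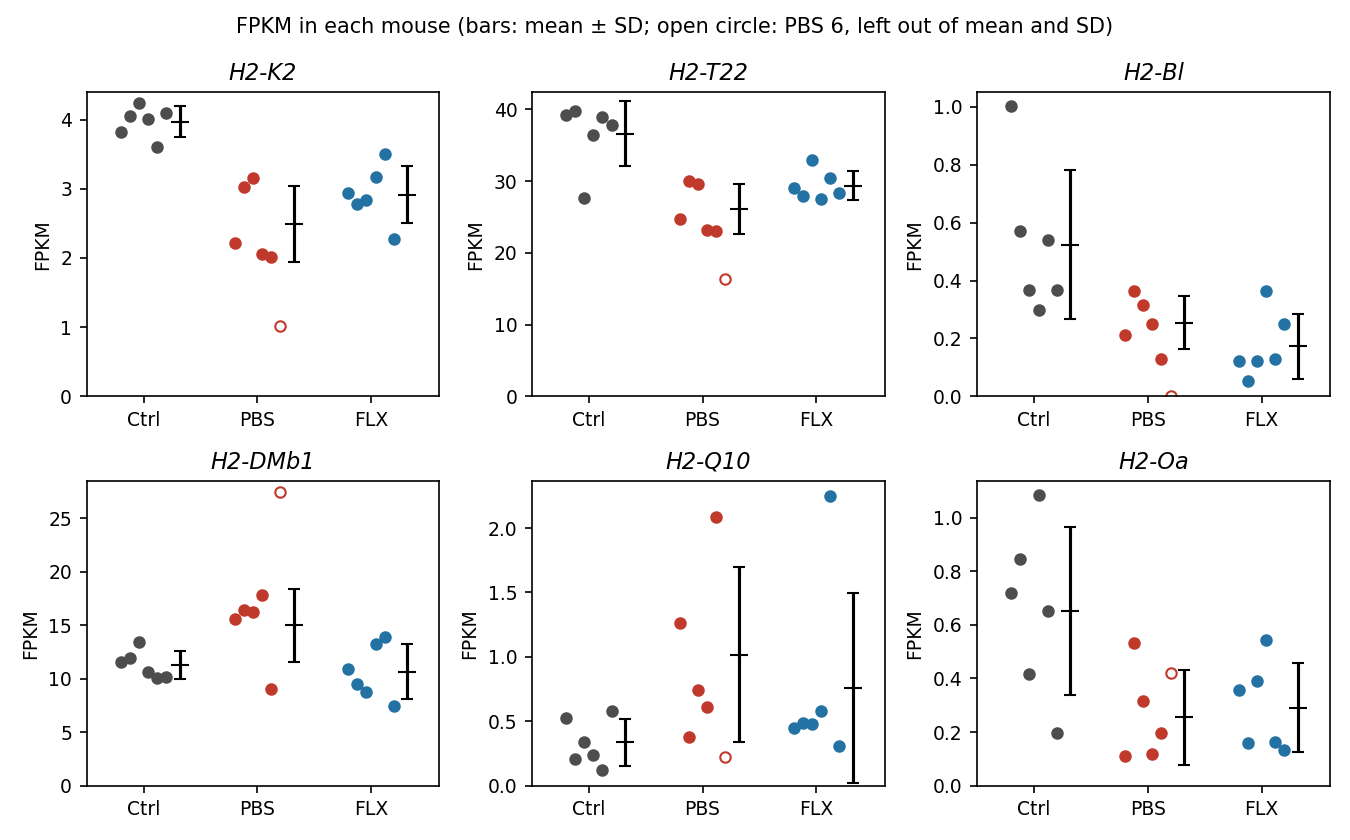
FPKM in each mouse for the 6 members that passed a call rule or, for H2-DMb1, passed an adjusted p by DESeq2. Bars are mean ± SD without PBS 6 (open circle), with n = 6 Ctrl, 5 PBS and 6 FLX mice. H2-K2 separates Ctrl (3.60 to 4.24 FPKM) from all other mice, and H2-DMb1 is at 15.6 to 17.8 FPKM in PBS 1 to PBS 4.

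The 3 most abundant class I genes, B2m, H2-D1 and H2-K1, did not pass the test between any groups. B2m was at 270, 310 and 421 FPKM in Ctrl, at 365, 372, 393, 363 and 365 FPKM in PBS 1 to PBS 5 and at 277, 307 and 506 FPKM in FLX. The narrow PBS values lay within the wide range of Ctrl and FLX. The log2 fold change in PBS versus Ctrl was 0.20 (95% interval -0.09 to 0.48, adjusted p = 0.492). H2-K1 was at 79.9, 89.0 and 120 FPKM in Ctrl and at 105, 99.7, 99.2, 88.2 and 105 FPKM in PBS 1 to PBS 5 (log2 fold change 0.11, interval -0.21 to 0.44). H2-D1 was at 90.5, 98.8 and 122 FPKM in Ctrl and at 104, 103, 98.9, 95.4 and 113 FPKM in PBS 1 to PBS 5 (0.014, interval -0.24 to 0.27). The intervals of B2m, H2-K1 and H2-D1 leave room for changes of either sign. Nlrc5 was at 0.355, 0.431 and 1.47 FPKM in Ctrl, with the highest value in Ctrl 3, and at 0.448 to 0.715 FPKM in PBS (log2 fold change -0.045 ± 0.33 SE, or 0.36 without Ctrl 3).

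Among the non-classical class I genes, 14 of 20 were tested and H2-T22 alone was called in PBS versus Ctrl, with a median log2 fold change of -0.20. H2-T23, the mouse Qa-1 antigen that binds CD94/NKG2 receptors, was at 36.6, 41.7 and 49.0 FPKM in Ctrl and at 37.4, 38.7, 39.5, 35.4 and 29.7 FPKM in PBS 1 to PBS 5 (-0.23 ± 0.10 SE, adjusted p = 0.231). H2-Q5 was at 4.23 ± 0.735 FPKM in Ctrl and 3.37 ± 0.516 FPKM in PBS (SD, n = 6 and 5), with an adjusted p of 0.254. H2-Q6 and H2-Q7, which encode Qa-2, and the nearby H2-Q4 had their highest value in Ctrl 3 (38.2, 11.6 and 23.0 FPKM), and none passed the test (adjusted p = 0.882, 0.634 and 0.522). 5.99% of the 150-base stretches of H2-Q6 transcripts were also in H2-Q7, so reads of these copies may have been split between them. H2-M3, which presents formylated peptides, was at 2.59 ± 0.581 FPKM in Ctrl and 2.29 ± 0.531 FPKM in PBS, and H2-T24 at 0.919 ± 0.382 and 0.979 ± 0.146 FPKM (SD, n = 6 and 5). H2-Q1 was listed at 0 in Ctrl 3, PBS 2, PBS 6, FLX 1, FLX 5 and FLX 6, and at 0.811 to 1.83 FPKM in the other mice.

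All 4 class II chains and Cd74 had a fitted fold below 0 in PBS versus Ctrl, and none passed the test. Cd74 was at 79.5, 107 and 169 FPKM in Ctrl, at 100, 104, 124, 94.3 and 85.1 FPKM in PBS 1 to PBS 5 and at 79.5, 109 and 165 FPKM in FLX. Its log2 fold change of -0.13 (interval -0.48 to 0.23) became 0.0052 without Ctrl 3, its highest control. H2-Eb1 was at 33.6, 44.6 and 48.2 FPKM in Ctrl and at 41.3, 38.3, 49.1, 36.7 and 31.8 FPKM in PBS 1 to PBS 5 (-0.13, adjusted p = 0.724). H2-Aa was at 22.5 ± 3.32 FPKM in Ctrl and 20.4 ± 3.59 FPKM in PBS, and H2-Ab1 at 39.5 ± 6.56 and 36.8 ± 6.55 FPKM (SD, n = 6 and 5). H2-Eb2 was at or near 0 throughout. Ciita, the class II transactivator, was at 0.337 ± 0.0729 FPKM in Ctrl and 0.264 ± 0.058 FPKM in PBS (SD, adjusted p = 0.520).

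Of the markers of cells that carry class II, 1 of 7 for dendritic cells, 0 of 8 for macrophages and 0 of 6 for B cells were called by edgeR in PBS versus Ctrl, and 5, 0 and 2 had an unadjusted p under 0.05. Over all genes, 3.81% were called and 17.9% had an unadjusted p under 0.05. The sum of 7 dendritic cell markers was at 2.63 to 3.405 FPKM in Ctrl, 1.42 to 1.95 FPKM in PBS 1 to PBS 5 and 2.81 to 4.50 FPKM in FLX. PBS 6 was at 2.59 FPKM, close to the lowest Ctrl mouse. All 7 markers had a fitted fold below 0 in PBS versus Ctrl, and Clec9a, a receptor of cross-presenting dendritic cells, was called (-0.85 ± 0.22 SE, adjusted p = 0.0364). With all 6 PBS mice, 2 of the 7 had an unadjusted p under 0.05, and Clec9a stayed called (adjusted p = 0.0300). 8 macrophage markers summed to 51.0 to 60.5 FPKM in Ctrl and 53.6 to 75.3 FPKM in PBS with none called. The 6 B cell markers summed to 0.612 to 2.51 FPKM in Ctrl (median 1.84) and 0.619 to 1.497 FPKM in PBS (median 0.731). All 6 had a fitted fold below 0, with a median of -0.77 against -0.0078 over all genes. 3 of the 6 had a mean under 0.1 FPKM in each of these groups. 7 T cell markers summed to 2.498 to 5.31 FPKM in Ctrl and 2.26 to 4.31 FPKM in PBS. Neutrophil markers summed to 1.94 to 4.46 FPKM in Ctrl and 9.32 to 28.5 FPKM in PBS. 3 of the 5 tested neutrophil markers were called, all higher in PBS, and all 5 had an unadjusted p under 0.05. The part of these cells in the members' values was not tested.

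H2-DM exchanges the invariant chain remnant for peptide. H2-DMb1, its beta chain, was at 10.1, 11.1 and 13.5 FPKM in Ctrl, at 15.6, 16.4, 16.3, 17.8 and 9.09 FPKM in PBS 1 to PBS 5 and at 7.41, 10.2 and 13.9 FPKM in FLX. PBS 1 to PBS 4 were above every Ctrl and FLX mouse, PBS 5 was below every Ctrl mouse, and PBS 6 was highest at 27.5 FPKM. The log2 fold change in PBS versus Ctrl was 0.43 ± 0.17 (SE) and missed the threshold with an adjusted p of 0.178. It passed without PBS 5 (0.57, adjusted p = 0.0293). The partner chain H2-DMa, which overlaps Brd2 on the other strand by 3079 bases, was at 2.51 ± 0.596 FPKM in Ctrl and 2.79 ± 0.621 FPKM in PBS, and the second beta chain H2-DMb2 at 1.28 ± 0.36 and 1.22 ± 0.288 FPKM (SD, n = 6 and 5). H2-DMb1 shared 4.71% of its 150-base stretches with H2-DMb2.

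None of the 6 members for peptide supply (Tap1, Tap2, Tapbp, Psmb8, Psmb9 and Psmb10) was called by edgeR in any comparison, and Tap1 and Tapbp had an unadjusted p under 0.05 in FLX versus Ctrl. Tap1 was at 2.26, 2.64 and 5.19 FPKM in Ctrl, at 2.78, 2.30, 2.39, 3.35 and 2.53 FPKM in PBS 1 to PBS 5 and at 1.49, 1.91 and 3.47 FPKM in FLX. Its highest values were in Ctrl 3 and Ctrl 6. Tap2 was at 4.41 ± 1.34 FPKM in Ctrl, 5.20 ± 1.02 FPKM in PBS and 4.96 ± 1.32 FPKM in FLX, and Tapbp at 17.2 ± 2.599, 16.4 ± 2.00 and 15.6 ± 2.09 FPKM (SD, n = 6, 5 and 6). Psmb9 was at 2.54, 3.00 and 3.54 FPKM in Ctrl and at 2.43, 1.82, 2.42, 2.87 and 2.11 FPKM in PBS 1 to PBS 5 (log2 fold change -0.38 ± 0.23 SE, adjusted p = 0.416). Psmb8 had 4.70 ± 0.578 FPKM in Ctrl, 4.58 ± 0.370 FPKM in PBS and 4.63 ± 1.77 FPKM in FLX, and Psmb10 8.32 ± 1.10, 8.49 ± 1.57 and 7.91 ± 2.18 FPKM. Psmb9 and Tap1 lie head to head on opposite strands and overlap by 212 bases, where reads could not be assigned without strand. Tapbp overlaps Zbtb22 on the same strand by 3422 bases, so its counts may include reads of that gene.

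Set against the constitutive subunits that they replace, the inducible subunits were minor in all groups. Psmb8 reached 2.49 ± 1.10% of the level of Psmb5 in Ctrl, 2.62 ± 0.490% in PBS and 2.72 ± 1.15% in FLX (SD of per-mouse ratios, n = 6, 5 and 6). Psmb9 reached 4.30 ± 2.06%, 3.57 ± 0.988% and 3.86 ± 1.81% of Psmb6. Psmb10 was at 20.7 ± 2.46%, 23.0 ± 4.99% and 21.2 ± 5.74% of Psmb7. The groups overlapped in all 3 ratios, and the highest Psmb8 and Psmb9 shares in each of Ctrl and FLX came from Ctrl 3 and FLX 5 (8.39% and 6.95% for Psmb9). In Ctrl 3 the constitutive Psmb5 and Psmb6 were also the lowest of all mice (110 and 42.2 FPKM).

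**Figure D3:**
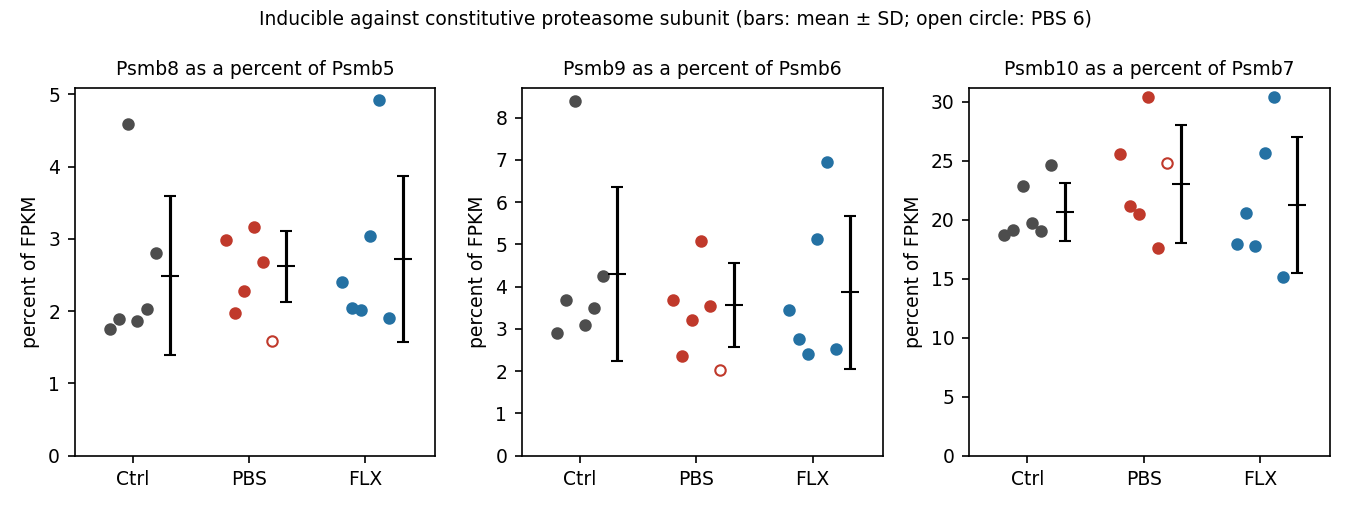
FPKM of each inducible proteasome subunit as a percent of the constitutive subunit it replaces, by mouse, with mean ± SD (n = 6 Ctrl, 5 PBS, 6 FLX) and PBS 6 as an open circle. The points reach at most 4.92% for Psmb8 and between 15.2 and 30.4% for Psmb10, and the groups overlap.

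FLX versus PBS asks what fluoxetine changed in defeated and injected mice, and shares the PBS mice with PBS versus Ctrl. None of the 38 members passed the adjusted p in edgeR, beside 0.726% of all genes with 5 PBS mice and 0.557% with all 6. None passed the rule of the study (1.9% of genes), and in none did the groups stop overlapping (2.92% of genes). 1 member had an unadjusted p under 0.05, beside 11.1% of genes: H2-DMb1, at -0.60 ± 0.17 (SE, adjusted p = 0.116). DESeq2 called this gene (adjusted p = 0.0253), limma on log2(FPKM + 0.1) called none, and edgeR called it without PBS 5 (-0.75, adjusted p = 0.0179). Its values give PBS 1 to PBS 4 above all FLX mice and PBS 5 within them. H2-K2 (0.14 ± 0.14 SE) and H2-T22 (0.078 ± 0.11 SE) had adjusted p-values of 0.797 and 0.877, with 95% intervals of -0.15 to 0.42 and -0.15 to 0.31. Of the 7 dendritic cell markers, 6 had a fitted fold above 0 in FLX versus PBS, 2 had an unadjusted p under 0.05 and 1 was called. The marker called was the transcription factor gene Zbtb46 (0.72 ± 0.14 SE, adjusted p = 0.0241, or 0.0801 with all 6 PBS mice). Cd209a had the other unadjusted p under 0.05 (2.32 ± 0.63 SE, adjusted p = 0.106). The median over the members was -0.018, against -0.0027 over all genes.

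FLX versus Ctrl compares treated, defeated mice with handled mice, and shares the Ctrl mice with PBS versus Ctrl. 3 of 38 members (7.89%) were lower in FLX and none was higher, beside 3.67% of all genes called. H2-K2 had a log2 fold change of -0.53 ± 0.13 (SE, adjusted p = 0.0327, exact permutation p = 0.00216), again with no overlap, beside 3.4% of genes. H2-Bl was at 0.0517, 0.127 and 0.362 FPKM in FLX, with a log2 fold change of -1.70 ± 0.42 (SE, adjusted p = 0.0346), and FLX 4 within the Ctrl range. H2-T22 had a log2 fold change of -0.41 ± 0.10 (SE, adjusted p = 0.0385). These calls lay close to the threshold. Among 17 fits without 1 mouse, H2-K2 lost its call in 9, H2-T22 in 10 and H2-Bl in 7, and with all 6 PBS mice in the shared fit none of the 3 kept it. limma did not call H2-T22 (adjusted p = 0.0562 on log2(FPKM + 0.1)). Without Ctrl 3 all 3 were called, together with H2-Ke6 (-0.54, adjusted p = 0.0151). These 4 were 10.53% of the members, beside 15.4% of all genes called in that fit. With FLX 1 and FLX 2 alone, the FLX libraries of the depth of the other groups, the log2 fold changes of H2-K2, H2-T22 and H2-Bl were -0.50, -0.40 and -2.56 and no member was called. Only 4 of 21863 genes tested were called in that fit, so the lack of a call says little about the members.

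11 members (28.9%) had an unadjusted p under 0.05 in FLX versus Ctrl, beside 20.4% of all genes. 10 of them had a fold below 0, among them Tap1 (-0.56 ± 0.23 SE, adjusted p = 0.176) and Tapbp (-0.23 ± 0.10 SE, adjusted p = 0.222). 3 passed the rule of the study, beside 2.24% of genes: H2-Q10 (1.08), H2-Oa (-1.25) and H2-Bl. The median log2 fold change over the members was -0.16, against -0.0092 over all genes, and 8 of 38 folds were above 0. H2-Ke6 shares 54.5% of its 150-base stretches with the overlapping gene Gm20427, so its counts are uncertain.

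**Figure D4:**
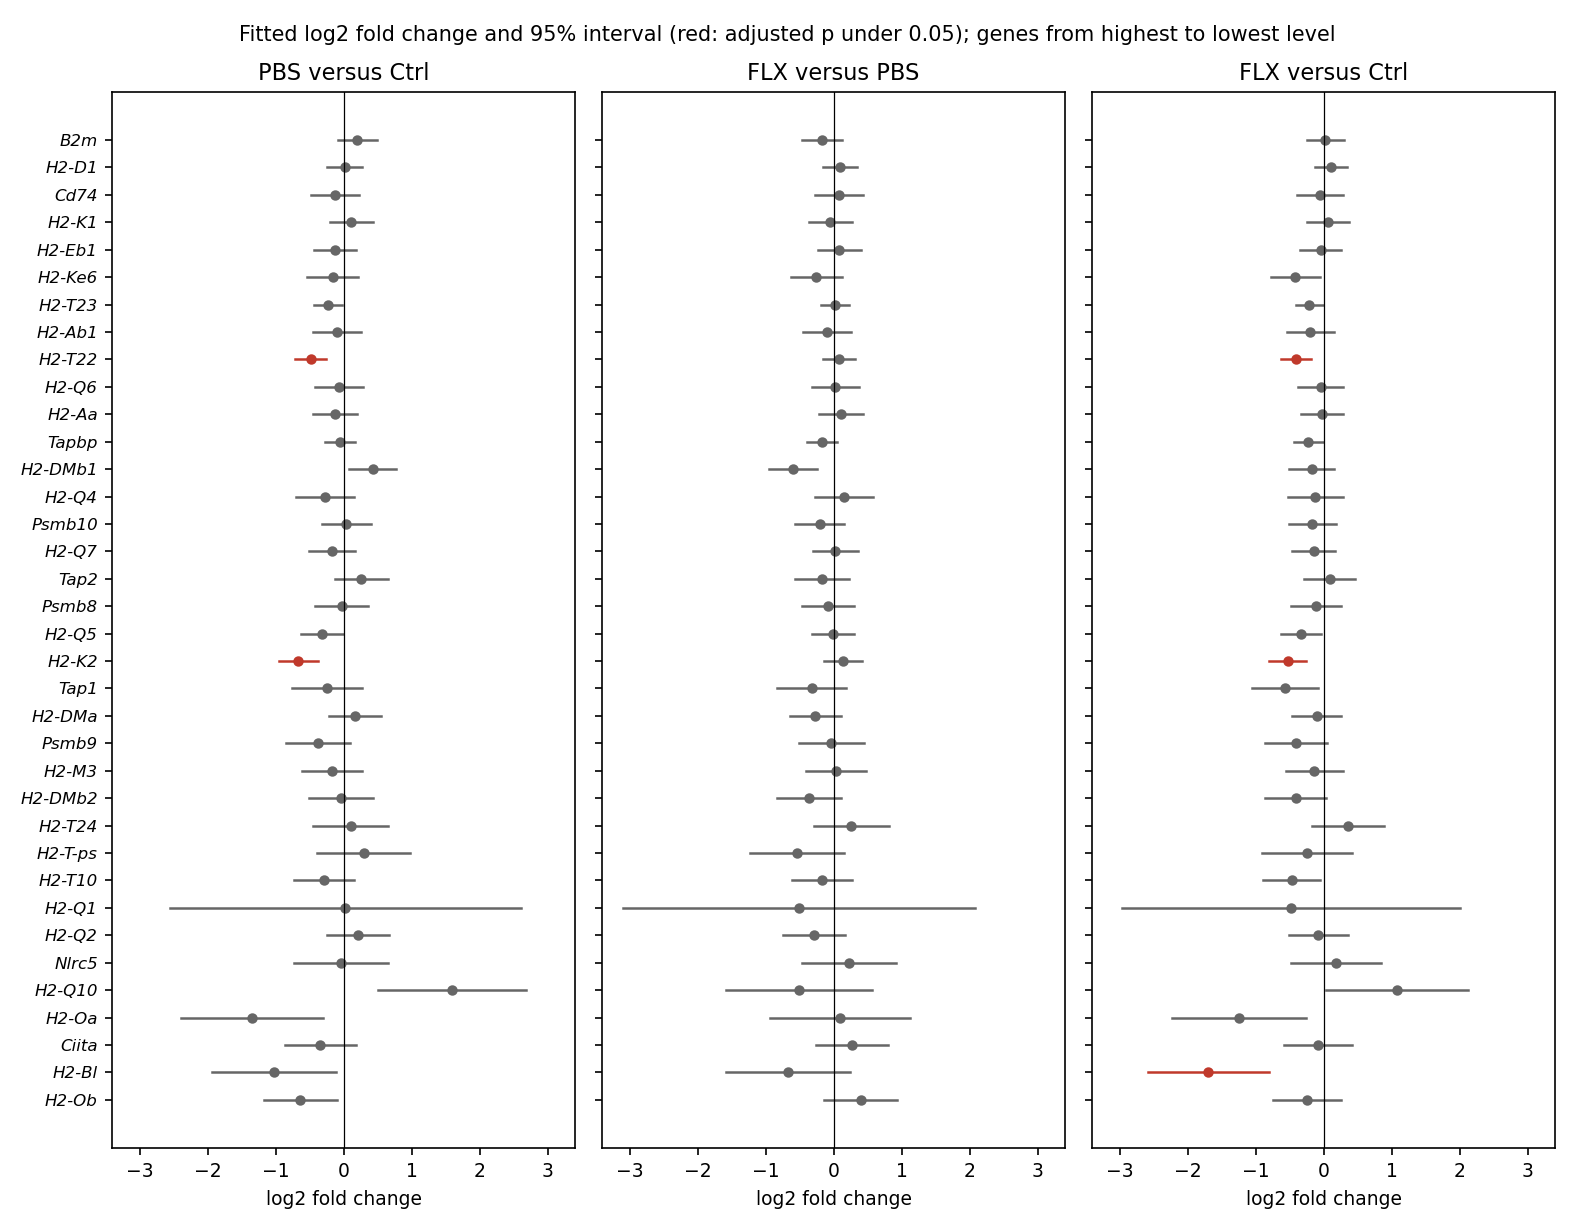
Fitted log2 fold change (point) and 95% interval (line) of the members with a mean of at least 0.2 FPKM, from highest to lowest level, in the 3 comparisons. Red marks an adjusted p under 0.05, as for H2-K2 (-0.66) and H2-T22 (-0.49) in PBS versus Ctrl, and no member is red in FLX versus PBS.

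The members varied widely among mice of 1 group. Deviations were taken as log2(FPKM + 0.1) minus the mean of each gene over the 18 mice. They did not use the TMM scaling factors of the edgeR fit, of which FLX 4 had the largest (1.10), and have no value over all genes beside them. Over all genes, the median FLX versus Ctrl log2 fold change was 0.063 by limma on log2(FPKM + 0.1) and -0.0092 by edgeR. The part of library-wide shifts in the deviations was not tested. In FLX 4, 36 of 38 members lay above their mean, in FLX 5 32 and in Ctrl 3 31, with median deviations of 0.33, 0.35 and 0.32. In FLX 6 only 4 members and in FLX 2 only 5 lay above their mean. Ctrl 3 had the highest value of 11 members, FLX 5 of 10 and FLX 4 of 7, while FLX 6 had the lowest of 13 and PBS 6 of 9. Mice that shared a lowest value of 0, as for H2-Q1, were each counted. In FLX, H2-K1 therefore ranged from 72.7 FPKM in FLX 6 to 153 FPKM in FLX 5, and H2-Eb1 from 28.7 FPKM in FLX 6 to 63.5 FPKM in FLX 4.

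Class I and class II genes shared several extreme mice but did not rank all mice alike. Median deviations were taken over B2m, H2-K1 and H2-D1, and over H2-Aa, H2-Ab1, H2-Eb1 and Cd74. They were 0.45 and 0.63 in FLX 4, 0.60 and 0.34 in FLX 5, and 0.27 and 0.31 in Ctrl 3. Both were lowest in FLX 6 (-0.33 and -0.47), while PBS 6 had 0.35 and -0.45. B2m, H2-K1 and H2-D1 were all highest in FLX 5 and above their mean in PBS 6, whereas H2-Aa, H2-Ab1 and H2-Eb1 were highest in FLX 4 and below their mean in PBS 6, Ctrl 6 and PBS 5. Cd74 was highest in Ctrl 3 (169 FPKM). 10 interferon gamma-induced genes such as Gbp2 and Igtp summed to 99.1 FPKM in PBS 4, 88.1 in Ctrl 3, 68.4 in FLX 5, 62.1 in Ctrl 6, 47.4 in FLX 4 and 47.1 in PBS 1, and to 23.6 to 35.1 FPKM in the other 12 mice. In PBS 4, the highest of these, the median deviation was -0.036 over all tested members and 0.24 over the 6 peptide supply members, each of which lay above its mean. The part of interferon gamma signalling and of macrophages in the mice with high values was not tested.

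Of 52 other genes of the pathway, 1 was higher and 1 lower in PBS versus Ctrl. These were 3.85% of the list, beside 3.81% of all genes. 8 (15.4%) had an unadjusted p under 0.05, beside 17.9%. Ifngr1, the ligand-binding chain of the interferon gamma receptor, was higher in PBS (13.9 ± 1.04 FPKM) than in Ctrl (9.99 ± 0.765 FPKM; SD, n = 5 and 6), with a log2 fold change of 0.48 ± 0.083 (SE, adjusted p = 0.00317). Azgp1, a class I-like lipid-binding protein, was lower in PBS (22.2 ± 5.11 FPKM) than in Ctrl (53.6 ± 15.4 FPKM), at -1.27 ± 0.25 (SE, adjusted p = 0.00755). None of 10 interferon gamma-induced genes, 11 of class I peptide supply or 8 of class II processing was called by edgeR in that comparison, and 0, 1 and 2 of them had an unadjusted p under 0.05. In FLX versus PBS 1 of the 52 (1.92%) was higher and none lower, beside 0.726% of all genes. Nfya, a subunit of the factor that binds CCAAT, had more transcript in FLX than in PBS (2.86 ± 0.248 against 1.96 ± 0.166 FPKM, SD, adjusted p = 0.0438), and was not called with all 6 PBS mice (0.0710). In FLX versus Ctrl, 2 (3.85%) were higher and none lower, beside 3.67% of all genes. Creb1, which binds the conserved promoter of class II genes, was at 1.81 ± 0.166 FPKM in FLX and 1.25 ± 0.274 FPKM in Ctrl (log2 fold change 0.46, adjusted p = 0.0375). Psme3, a proteasome activator subunit, was at 28.1 ± 1.71 and 21.9 ± 2.25 FPKM (0.28, adjusted p = 0.0375, or 0.0537 with all 6 PBS mice). Abundant genes of the pathway that did not pass in PBS versus Ctrl were Calr (172 ± 20.8 and 212 ± 51.9 FPKM in Ctrl and PBS), Psmb5 (208 ± 55.6 and 179 ± 29.7 FPKM) and Lgmn (229 ± 25.7 and 271 ± 51.4 FPKM).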

How the data were processed

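RNA of the right kidney of 18 mice was sequenced as poly(A)-selected paired reads by the authors, with dUTP second-strand marking, and no source used here states how counting used strand. The deposited table gives FPKM and estimated counts per gene, which the authors made with HISAT, StringTie and related tools on GRCm38. The submitters' notes name HISAT2 2.0.4, StringTie 1.3.4d and cutadapt 1.9. The deposited estimated counts are whole numbers but do not fall off smoothly (a median of 720 genes per mouse at 4 counts, 484.5 at 3 and 268 at 5), so they were used as estimates.

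Counts were fitted with edgeR 4.0.16 (quasi-likelihood, TMM scaling, genes kept by filterByExpr) in R 4.3.3 in 1 model over Ctrl, PBS without PBS 6, and FLX, 17 mice in all. P-values were adjusted (Benjamini-Hochberg) over all 20251 genes tested. A second rule, that of the study, took a log2 fold change beyond 1 and an unadjusted p under 0.05. Single members were also compared by an exact 2-sided permutation test on log2(FPKM + 0.1). Genes described singly, by mouse or by group mean, were the 10 named in the rule, class I and class II genes of at least 1 FPKM and members past a call rule. Other pathway genes were named where called, with up to 3 abundant others. Members and lists were chosen with earlier results of these data known. Samples were taken as separate mice. The labels give only a group and a number, so p-values measure the spread between these samples. The fitting was tested on simulated counts. Alternatives were DESeq2 1.42.0, limma 3.58.1 on log2(FPKM + 0.1, 1 or 0.01), upper-quartile scaling, no filter, all 6 PBS mice, FLX 1 and 2 only, pairwise fits, a replicate block and leaving out each mouse. Stretches of 150 bases shared between transcripts were counted in GENCODE M21, and promoters came from RefSeq on GRCm38.p6.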

Additional observations from a re-analysis of the deposited data

Results flagged for a closer look

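In 14 of 114 checks (38 members in 3 groups of 6 mice, PBS 6 included) the highest or lowest mouse lay farther from the others than Dixon's criterion allows, which chance gives in about 1 of 20 groups. 9 of the 14 were in Ctrl 3. It was far above the other controls in H2-K1 (120 FPKM against 79.9 to 90.5), Cd74 (169 against 79.5 to 112), H2-Q6 (38.2 against 20.5 to 24.9), H2-Q4 (23.0 against 9.40 to 12.8), H2-Q7 (11.6 against 7.19 to 8.23), Tap2 (7.05 against 3.39 to 4.35) and Nlrc5 (1.47 against 0.355 to 0.768). It was far below them in H2-T22 (27.6 against 36.4 to 39.8 FPKM) and in H2-Q1, which was listed at 0.

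The others were single values in different mice. H2-D1 was at 143 FPKM in PBS 6 against 95.4 to 113 in the other PBS mice. H2-Q10 was at 2.25 FPKM in FLX 5 against 0.305 to 0.578, and H2-Ob at 0.557 FPKM in FLX 4 against 0.180 to 0.296. H2-T-ps was at 1.48 FPKM in Ctrl 1 against 0.837 to 0.917, and Ciita at 0.197 FPKM in Ctrl 5 against 0.335 to 0.404.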

How the results depend on the processing

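Of 714 fits of single members without 1 mouse, 666 kept direction and side of the threshold, and of 420 under other alternatives 393 did. Most of these members were not called in the main fit and kept their side by staying uncalled. A call was lost in 28 of the 714 and 16 of the 420, all among the 2 calls in PBS versus Ctrl and the 3 in FLX versus Ctrl. Of the 17 fits without 1 mouse, H2-K2 lost its PBS versus Ctrl call in 0 and H2-T22 in 2. In PBS versus Ctrl the 2 calls became 1 in a fit of these 2 groups alone and 1 to 3 without single mice (1 without PBS 1 or PBS 4). In FLX versus PBS the count of 0 became 1 with DESeq2 and 0 to 1 without single mice (1 without PBS 5). In FLX versus Ctrl the 3 calls became 1 with no filter, 0 with all 6 PBS mice, 0 with FLX 1 and 2 only, and 0 to 4 without single mice (0 without Ctrl 1, 2 or 5 or FLX 1 or 2, and 4 without Ctrl 3). H2-T22 kept its call there in 3 of 10 alternatives, and was lost with limma at each pseudocount (adjusted p = 0.0562, 0.0563 and 0.0571). By the rule of the study, the 3 members in PBS versus Ctrl became 5 with no filter, 0 with limma on log2(FPKM + 1) and 2 to 3 without single mice. The 0 in FLX versus PBS became 1 with FLX 1 and 2 only and 0 to 1 without single mice. The 3 in FLX versus Ctrl became 5, 1 with limma on log2(FPKM + 0.1), 0 with log2(FPKM + 1), 1 with FLX 1 and 2 only, and 2 to 3 without single mice. Where these counts changed, the cause was not tested beyond the samples or genes that each setting leaves out.

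Log2 fold changes near 0 changed sign. In PBS versus Ctrl, upper-quartile scaling gave -0.0096 for Psmb10 and -0.033 for H2-D1, and limma gave Nlrc5 0.081, 0.0033 and 0.11 at pseudocounts of 0.1, 1 and 0.01. Without single mice the ranges were -0.073 to 0.017 for Psmb8, -0.21 to 0.0052 for Cd74, -0.060 to 0.15 for Psmb10, -0.0083 to 0.055 for H2-D1, -0.18 to 0.010 for H2-Ab1 and -0.16 to 0.36 for Nlrc5. H2-Oa in FLX versus PBS was at -0.043 with all 6 PBS mice, -0.028 with FLX 1 and 2 only and -0.14 to 0.55 without single mice.

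Replicate numbers did not pair the mice: 3 of 16 same-numbered pairs had deviations correlated above 0.1 (-0.22 to 0.29), and 3 of 17 mice matched best with their own number. A fit with the replicate block called 1 member in PBS versus Ctrl (H2-K2, while H2-T22 had an adjusted p of 0.0618), 0 in FLX versus PBS and 0 in FLX versus Ctrl, with H2-D1 at -0.024 and Nlrc5 at 0.047 in PBS versus Ctrl.

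Over all genes, PBS versus Ctrl, FLX versus PBS and FLX versus Ctrl gave 772, 147 and 744 calls, 1413, 498 and 1615 with DESeq2, 542, 88 and 378 with no filter, 419, 67 and 258 with the block, 770, 255 and 1214 with limma on log2(FPKM + 0.1), 612, 0 and 4 with FLX 1 and 2 only, 496, 95 and 717 in fits of 2 groups, and 853, 111 and 354 with all 6 PBS mice. H2-Bl had only 0 to 155 counts a mouse, which limits its precision.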
